A study of Homo sapiens with 4 samples.

Results

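The BCL2 family regulators described here are 10 genes, *BCL2*, *BCL2L1*, *MCL1*, *BAX*, *BAK1*, *BBC3*, *PMAIP1*, *BCL2L11*, *BID* and *BIK*, taken from the 28278 gene symbols of the deposited count table by their symbol alone. All 10 had enough counts to be tested, among 15150 genes tested in all. RNA was sequenced from 2 libraries of control cells and 2 libraries of cells labelled *USP22* knockout (sgUSP22), all after 24 h of Sorafenib, a multikinase inhibitor used against liver cancer. Both groups were labelled HepG2, a line established from a human liver cancer, and both were infected with lentivirus carrying Cas9. Control cells carried a control sgRNA and sgUSP22 cells carried a *USP22* sgRNA, and both were used as stably infected populations, not as single clones. No untreated library was analysed here, so every difference below is between sgUSP22 and control cells under Sorafenib. The labels do not say whether the 2 libraries of a group came from separate cultures, so the p-values measure the spread between these libraries, which may be technical.

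Proteins of the BCL2 family decide whether the outer mitochondrial membrane stays intact. The guardians BCL2, BCL-xL (encoded by *BCL2L1*) and MCL1 hold the effectors BAX and BAK (*BAK1*) in check, and once freed the effectors form pores that release cytochrome c and lead to caspase activation. The BH3-only proteins, among them PUMA (*BBC3*), NOXA (*PMAIP1*), BIM (*BCL2L11*), BID and BIK, bind the guardians or activate the effectors, and NOXA binds MCL1 with preference. Much of the control of MCL1 and NOXA acts on protein turnover, which transcript counts do not measure.

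Library totals lay between 62030307 and 64728272 counts. *USP22*, the gene targeted by the sgRNA, was counted 16450 and 16537 times in control against 20279 and 20368 times in the libraries labelled sgUSP22, a log2 fold change of 0.22 ± 0.0341 (SE, n = 2 per group), so the transcript was not lower in the labelled knockout. The counts do not show the protein, and alone they cannot tell an edited transcript from exchanged labels. The paper reports that the efficiency of its *USP22* knockout was checked by Western blot. It also reports RT-qPCR in which *FBXW7*, among other genes, was higher in knockout cells under Sorafenib. In the libraries labelled sgUSP22 *FBXW7* was higher as well, with a log2 fold change of 0.62. Whether labels were exchanged was not tested here. Every direction below therefore rests on the labels and would turn round if they were exchanged, and sgUSP22 stands for the libraries labelled so. Of 20 hepatocyte genes, 10 were at 0 in all 4 libraries, including *ALB*, *APOA1*, *APOB* and *TTR*, the highest count of any was 132, and their summed level was 1.54 to 2.92 CPM (counts scaled to library size, here with TMM factors), which goes against the labelled cell type. Endothelial markers summed to 0.131 to 0.657 CPM, and of the leukocyte markers *PTPRC*, *CD3E* and *LYZ* had 0 to 4 counts in each library, whereas *CD68* carried nearly all of that list's 73.8 and 74.1 CPM in control and 47.0 and 44.1 CPM in sgUSP22. Fibroblast markers summed to 147 and 133 CPM in control and 323 and 332 CPM in sgUSP22 libraries, but did not move as one: *LUM* (70.2 and 60.0 against 182 and 187 CPM) and *DCN* (10.2 and 9.38 against 79.0 and 77.4 CPM) were called higher, *PDGFRB* was called lower (log2 fold change -0.98), *COL1A1* had 0.11 (edgeR adjusted p = 0.175) and *COL1A2* was at or near 0. In bulk RNA, fewer cells of a type and less RNA per cell cannot be told apart, and the part of these markers in the results was not tested.

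The sequence just upstream of the RefSeq start is shown for 4 members, because *BAX* and *BBC3* were lower and *PMAIP1* and *BCL2L11* were higher in sgUSP22 cells. RefSeq promoter entries (GRCh38.p14) were matched for 8 of the 10 members. The stretch of 250 bases before each RefSeq start was searched on both strands for the motifs named below. Any exon of the GENCODE annotation was trimmed off before printing, which left 190 bases of *BAX* and 151 bases of *BBC3*. Those stretches end 60 and 99 bases before the RefSeq start. The *BCL2L11* stretch lies inside the GENCODE span of the gene, which begins at 111119378, but holds no annotated exon. Capitals mark the E-box in the following stretches:
BAX (chr19:48954625-48954814, plus strand): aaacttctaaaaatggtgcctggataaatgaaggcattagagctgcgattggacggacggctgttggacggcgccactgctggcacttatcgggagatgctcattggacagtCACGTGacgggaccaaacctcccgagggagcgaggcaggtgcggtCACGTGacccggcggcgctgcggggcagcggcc
BBC3 (chr19:47232767-47232917, minus strand): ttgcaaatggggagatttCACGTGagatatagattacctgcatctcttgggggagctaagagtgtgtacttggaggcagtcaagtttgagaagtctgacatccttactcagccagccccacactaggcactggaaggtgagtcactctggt
and in these stretches capitals mark the GC box on either strand:
PMAIP1 (chr18:59899746-59899995, plus strand): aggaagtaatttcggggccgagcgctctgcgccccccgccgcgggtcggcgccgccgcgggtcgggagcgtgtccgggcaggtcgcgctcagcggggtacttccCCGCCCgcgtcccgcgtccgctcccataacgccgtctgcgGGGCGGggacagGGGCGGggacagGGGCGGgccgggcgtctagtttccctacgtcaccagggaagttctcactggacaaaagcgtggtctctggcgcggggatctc
BCL2L11 (chr2:111120664-111120913, plus strand): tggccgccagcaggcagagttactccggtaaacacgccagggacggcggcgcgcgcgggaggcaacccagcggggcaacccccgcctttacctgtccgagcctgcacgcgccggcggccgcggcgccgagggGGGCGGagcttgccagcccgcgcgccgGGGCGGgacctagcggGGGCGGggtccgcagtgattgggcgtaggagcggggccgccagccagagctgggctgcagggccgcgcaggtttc

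The E-box was searched as CACGTG. The full *BAX* window held 4, at 138, 93, 45 and 14 bases before the RefSeq start, and the *BBC3* window held 1, at 232 bases. The E-box was present in 3 members, *BAX*, *BBC3* and, at some of its annotated starts, *BID*, and in 6.34% of all 35116 promoter windows. Counted per gene, at any of its starts, 11.2% of tested genes with an entry held one. All 3 were lower in sgUSP22 cells, with *BID* turning to 0.012 when scaled to *GAPDH*. Over the 1267 tested genes with an E-box in the window, however, the median log2 fold change was -0.032, against 0.014 over the 10092 tested genes without one. The GC box, searched as GGGCGG, was found in 5 members (*BAX*, *BAK1*, *PMAIP1*, *BCL2L11* and *BID*), with 4 copies in *PMAIP1* and 3 in *BCL2L11*, and in 42.6% of all windows or, counted per gene, 72.7% of tested genes with an entry. It was therefore present in members that were higher and in members that were lower. *BBC3* was the only member with an AP-1 site (TGANTCA), at 113 bases before the RefSeq start (6.57% of windows). No member window held a cyclic AMP element, searched as TGACGTCA (1.65%). These matches describe letters in a short window and say nothing of binding.

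The 10 transcripts did not move as one. With sgUSP22 set against control, 6 members were lower (*MCL1*, *BCL2L1*, *BAX*, *BAK1*, *BBC3* and *BID*) and 4 were higher (*PMAIP1*, *BCL2L11*, *BIK* and *BCL2*) at an adjusted p-value below 0.05 in the quasi-likelihood test of edgeR (Benjamini-Hochberg adjustment over all tested genes), where *BAK1* and *BID* turned to 0.0085 and 0.012 when scaled to *GAPDH*. By that rule 26.8% of all tested genes were higher and 25.8% were lower. *GAPDH* was itself lower (log2 fold change -0.23, edgeR adjusted p = 9.64e-05), so values scaled to it are relative to its own fall. With a change of at least 1.5-fold also required, which is the study's threshold and is meant by "called", *BIK* was called higher and *BBC3* was called lower, both of them BH3-only genes. Of all tested genes 8.88% were called higher and 7.25% were called lower. The control and sgUSP22 libraries did not overlap for any of the 10 members, as was the case for 75.9% of all tested genes. The median log2 fold change of the members was -0.22, against 0.00091 over all tested genes.

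**Figure D1:**
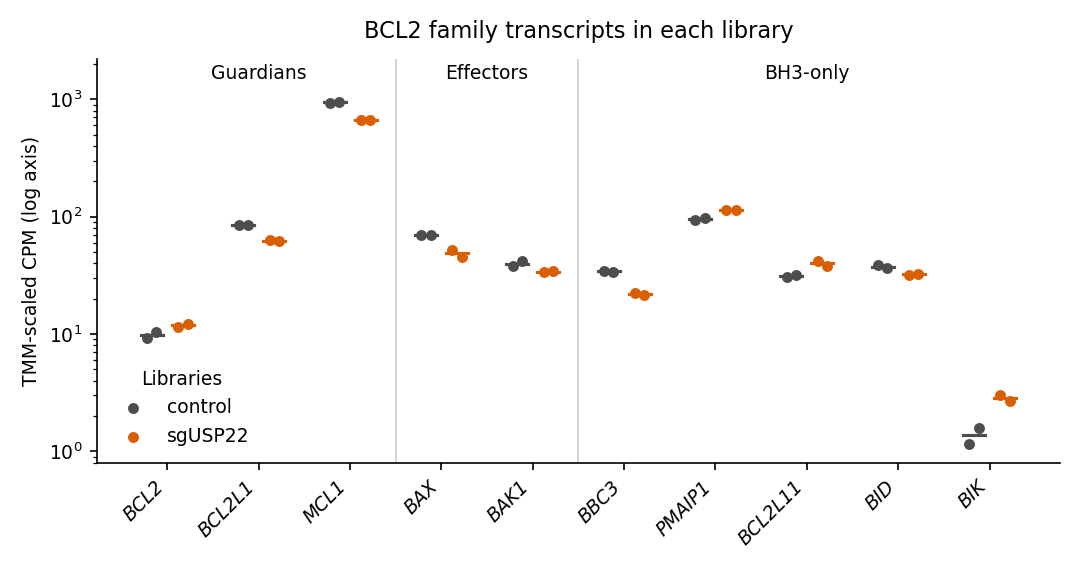
Level of each BCL2 family transcript (TMM-scaled CPM, log axis) in the 2 control and 2 sgUSP22 libraries, with points for libraries and bars for group means. The points of a group lie close together and the groups do not overlap for any gene, with *MCL1* near 944 CPM in control and *BIK* near 1.37 CPM.

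Among the guardians, the most abundant transcript fell and the least abundant rose. *MCL1*, which encodes a short-lived guardian, had 938 and 949 CPM in the control libraries and 669 and 669 CPM in the sgUSP22 libraries. Both sgUSP22 libraries were below both controls and the libraries of a group differed little. The change was 1.41-fold lower (log2 fold change -0.50 ± 0.0293, SE, n = 2 per group, edgeR adjusted p = 8.79e-07), the smallest adjusted p of the 10 members. *BCL2L1*, which encodes BCL-xL, had 84.9 and 84.4 CPM in control and 62.6 and 61.7 CPM in sgUSP22. It was 1.36-fold lower (log2 fold change -0.45 ± 0.0427, edgeR adjusted p = 1.82e-05). Neither reached 1.5-fold. *BCL2*, the founding member of the family, had 9.15 and 10.3 CPM in control and 11.6 and 12.2 CPM in sgUSP22. Its groups did not overlap but lay close, with a log2 fold change of 0.29 ± 0.108 (95% confidence interval 0.048 to 0.53, edgeR adjusted p = 0.046), and the adjusted p was 0.136 in DESeq2.

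Gene overlap bears on the guardians' counts, because the strand setting of the authors' counting is not given in the sources used here. *ABALON*, a long noncoding RNA on the opposite strand, shares 1735 bases with the exons of *BCL2L1*, or 41.3% of them. It had 293 and 261 counts in control and 170 and 149 in sgUSP22, few beside the 5174 and 5266 control counts of *BCL2L1*, and it was lower as well (log2 fold change -0.88). *MCL1* shares 328 exonic bases with *ADAMTSL4-AS1* on the same strand, which had 0 to 6 counts, and 43 with the oppositely oriented *ADAMTSL4*. The counts are per gene, so the splice forms of *MCL1*, *BCL2L1* and *BCL2L11*, some of which encode proteins of opposite function, were not separated.

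Both effectors were lower, *BAX* more than *BAK1*, which turned to 0.0085 when scaled to *GAPDH*. *BAX* had 69.6 and 69.6 CPM in the control libraries and 52.1 and 45.3 CPM in the sgUSP22 libraries. The sgUSP22 libraries differed from each other more than the controls did, and both were below them. *BAX* was 1.43-fold lower (log2 fold change -0.52 ± 0.0648, edgeR adjusted p = 1.09e-04). It was not called, but without sgUSP22 replicate 1 its log2 fold change was -0.63 and it was. *BAK1* had 37.9 and 41.5 CPM in control and 33.7 and 34.2 CPM in sgUSP22, with a log2 fold change of -0.22 ± 0.0644 (edgeR adjusted p = 0.0145). The adjusted p for *BAK1* was 0.102 without control replicate 2, 0.0506 without sgUSP22 replicate 1 and 0.0503 without sgUSP22 replicate 2.

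The BH3-only genes split, with 3 higher and 2 lower. *BBC3* encodes PUMA, which binds every guardian. It had 34.2 and 33.9 CPM in control and 22.3 and 21.3 CPM in sgUSP22, and the groups stood well apart. It was the only member called lower, by 1.56-fold (log2 fold change -0.65 ± 0.0686, edgeR adjusted p = 3.68e-05), and 19.9% of tested genes had a larger change in either direction. Its confidence interval, -0.80 to -0.49, includes the 1.5-fold threshold. With GC content and transcript length corrected the log2 fold change was -0.35 and *BBC3* was no longer called.

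*BID*, which joins the death receptor pathway to mitochondria once caspase-8 cleaves it, had 38.5 and 36.3 CPM in control and 31.9 and 32.3 CPM in sgUSP22. The log2 fold change was -0.22 ± 0.0621 (edgeR adjusted p = 0.0137), and it was 0.012 when scaled to *GAPDH*. Without control replicate 1 the adjusted p was 0.0711. Both sgUSP22 libraries were below both controls.

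*PMAIP1*, encoding NOXA, was the most abundant BH3-only transcript, with 94.3 and 96.9 CPM in control and 113 and 114 CPM in sgUSP22. It was higher in both sgUSP22 libraries, 1.19-fold (log2 fold change 0.25 ± 0.0394, edgeR adjusted p = 5.07e-04). *BCL2L11*, encoding BIM, had 30.3 and 32.0 CPM in control and 41.9 and 37.9 CPM in sgUSP22, or 1.28-fold higher (log2 fold change 0.36 ± 0.0693, edgeR adjusted p = 0.00169). *BCL2L11* lies wholly inside *MIR4435-2HG*, a noncoding gene on the opposite strand that shares 727 of its exonic bases. The host had 3748 and 4064 counts in control and 3539 and 3466 in sgUSP22, a log2 fold change of -0.24, opposite in sign to that of *BCL2L11*.

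*BIK*, whose BH3-only protein sits at the endoplasmic reticulum, had the largest fold change of the 10 members and was among the least expressed. Its counts were 71 and 98 in control and 200 and 173 in sgUSP22, or 1.16 and 1.57 CPM against 3.04 and 2.68 CPM. Both sgUSP22 libraries were above both controls, and the controls differed more in proportion than for any other member. The change was 2.09-fold (log2 fold change 1.06 ± 0.233, 95% confidence interval 0.54 to 1.59, edgeR adjusted p = 0.00348), and 8.88% of tested genes had a larger change in either direction. The log2 fold change was between 0.86 and 1.30 with any 1 library left out, and *BIK* was called each time.

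**Figure D2:**
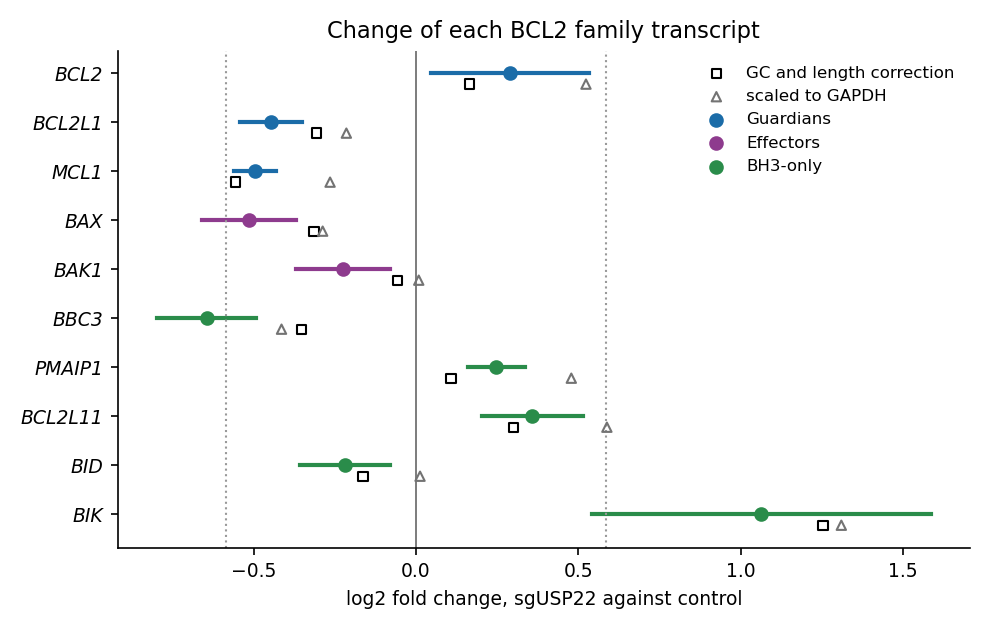
Log2 fold change of each member (filled points with 95% confidence intervals, n = 2 per group, coloured by role), with the values after GC and length correction (open squares) and after scaling to *GAPDH* (open triangles). Dotted lines mark 1.5-fold. Only *BBC3* and *BIK* lie past them, the corrected value of *BBC3* (-0.35) lies inside, and *BAK1* and *BID* reach 0.0085 and 0.012 on the *GAPDH* scale.

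Fold changes over all genes varied with base composition, which bears on several members. The median log2 fold change was 0.17 in the lowest and -0.16 in the highest of 5 equal groups of tested genes ordered by GC content. *PMAIP1*, at 36.7% GC in its longest transcript, lay in the lowest group, and *BAX*, *BAK1* and *BBC3*, at 58.9%, 58.8% and 69.7%, lay in the highest. After the trends with GC content and length were removed, *BBC3* was at -0.35, *BAX* at -0.31, *BCL2L1* at -0.31, *BAK1* at -0.057, *PMAIP1* at 0.11 and *BCL2* at 0.17 in log2 fold change. The edgeR adjusted p for *BAK1* became 0.477 and that for *BCL2* became 0.223, and 8 of the 10 members passed. *MCL1*, at 44.7% GC, went the other way, from -0.50 to -0.56, and *BIK* went from 1.06 to 1.25.

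**Figure D3:**
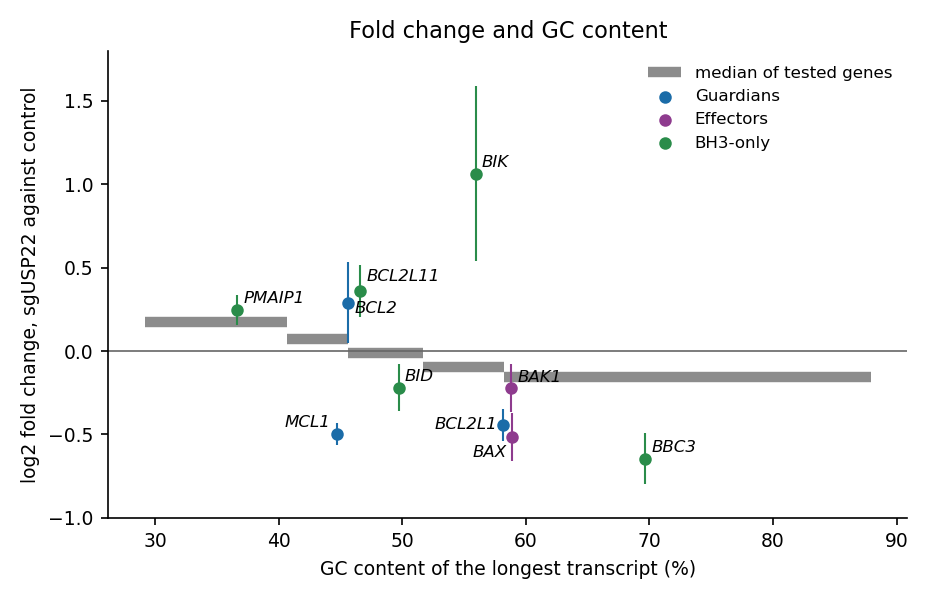
Log2 fold change of each member (points with 95% confidence intervals, n = 2 per group) against the GC content of its longest transcript. Grey bars give the median of all tested genes in 5 equal groups ordered by GC content and step down from 0.17 to -0.16. The intervals of *BAK1* and *PMAIP1* include their bars. *MCL1*, *BCL2L1*, *BAX*, *BBC3* and *BID* lie below their bars, and *BIK*, *BCL2L11* and *BCL2* lie above theirs.

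Levels of different genes were compared as CPM per kb of exon, which allows for gene length. In control cells *MCL1* was far above the rest with 151.7 ± 1.30 CPM per kb (SD, n = 2), followed by *PMAIP1* with 43.7 ± 0.851, *BAX* with 26.9 ± 0.00824, *BCL2L1* with 20.2 ± 0.0748 and *BAK1* with 17.9 ± 1.16. *BBC3* had 10.7 CPM per kb, *BID* 8.46, *BCL2L11* 4.62, *BIK* 1.44 and *BCL2* 0.771. No 2 neighbours in this order overlapped between their libraries. In sgUSP22 cells the order differed at *BAK1*, which had 15.3 CPM per kb and passed *BCL2L1* with 14.8, and at *BID*, which had 7.27 and passed *BBC3* with 6.84. With the longest transcript as the length, *BAX* rather than *PMAIP1* ranked just after *MCL1* in control cells, and in sgUSP22 cells *BCL2L1* (19.1) stayed above *BAK1* (15.3).

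The sums and shares below cover the 10 members alone and leave out *BCL2L2*, *BOK*, *BAD*, *BMF* and *HRK*. *MCL1* made up 87.9% of the guardian transcripts per kb in control and 87.2% in sgUSP22, while *BCL2* made up 0.446% and 0.764%. The guardian sum was 172.6 ± 1.28 CPM per kb in control and 123.3 ± 0.126 in sgUSP22 (SD, n = 2). The effector sum was 44.8 ± 1.16 in control and 34.2 ± 1.69 in sgUSP22, with *BAX* at 60.0% and 55.0% of it. The BH3-only sum was 68.9 ± 0.916 in control and 74.9 ± 0.395 in sgUSP22. Within that sum *PMAIP1* went from 63.4% to 69.3%, *BBC3* from 15.5% to 9.13%, *BID* from 12.3% to 9.70%, *BCL2L11* from 6.70% to 7.90% and *BIK* from 2.08% to 4.02%. No sum or share was corrected for the trends with GC content and length. That correction took the log2 fold change of *PMAIP1* from 0.25 to 0.11 and that of *BBC3* from -0.65 to -0.35. With *BCL2L2* (9.62 CPM per kb in control, 12.1 in sgUSP22) added to the guardians, the *MCL1* share was 83.2% and 79.4%. With *BAD* (19.0 and 16.9), *BMF* and *HRK* added to the BH3-only genes, the *PMAIP1* share was 48.8% and 55.5%. The libraries of the 2 groups did not overlap for any of the 3 sums over the members. The same held for each member alone and for 75.9% of all tested genes. With 2 libraries per group the smallest two-sided p of an exact permutation test is 0.333, so no test was made of the sums.

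**Figure D4:**
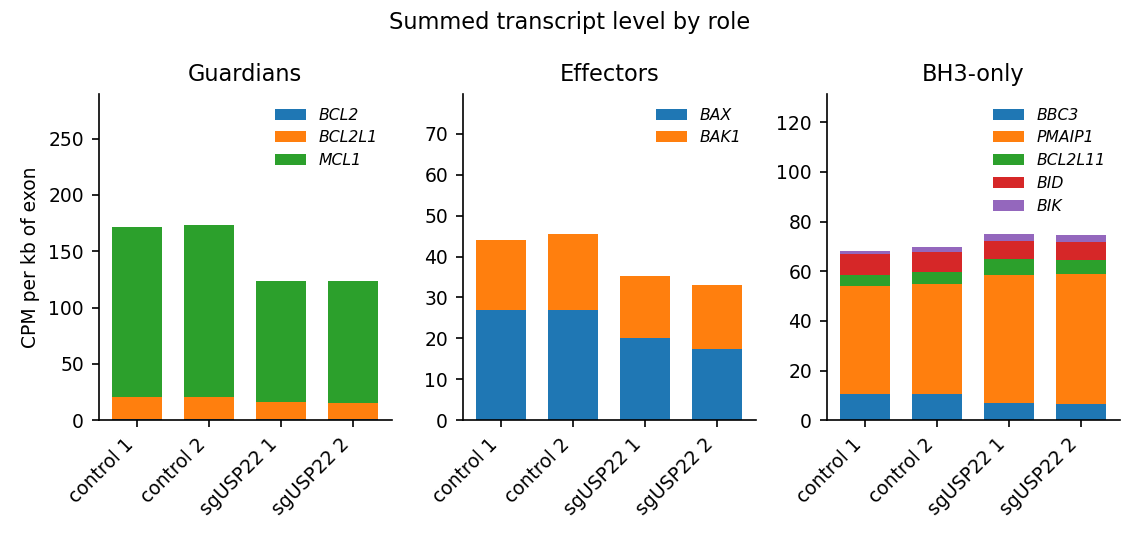
Stacked transcript levels (CPM per kb of exon, not corrected for GC content) of guardians, effectors and BH3-only genes in each library, on separate axes that start at 0. The guardian bars, mostly *MCL1*, drop from about 172.6 to 123.3, the effector bars from 44.8 to 34.2, and the BH3-only bars, mostly *PMAIP1*, go from 68.9 to 74.9.

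Ratios within a library do not depend on how libraries are scaled to each other. The pairs were chosen after their values were seen and carry no test. *MCL1* to *PMAIP1*, a guardian and the BH3-only gene whose product binds it, was 3.50 and 3.44 per kb in control and 2.09 and 2.06 in sgUSP22 libraries. *MCL1* to *BCL2L11* was 33.5 and 32.1 in control and 17.3 and 19.1 in sgUSP22. Both ratios were lower in each sgUSP22 library than in either control. *PMAIP1* to *BBC3*, both BH3-only, went from 4.02 and 4.16 to 7.38 and 7.80. These 2 genes lay in the lowest and highest GC groups. GC and length correction took their log2 fold changes from 0.25 and -0.65 to 0.11 and -0.35, and none of the ratios was so corrected. *BCL2L1* to *BAX*, by contrast, was 0.752 and 0.748 in control and 0.740 and 0.840 in sgUSP22, where the groups overlapped. *BCL2* to *BAX*, a guardian and an effector, was higher in sgUSP22, at 0.0455 and 0.0553 against 0.0270 and 0.0303 in control. *BCL2L11* to *BBC3* was 0.418 and 0.445 in control and 0.890 and 0.840 in sgUSP22.

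Each member was set beside the tested genes that start within 5 Mb of its start, with the least expressed left out. The median log2 fold change of the neighbours was -0.0039 for *MCL1*, -0.014 for *BCL2L1* and -0.044 for *BIK*. It was -0.15 for *BAX* and *BBC3*, which lie on chromosome 19, and 0.16 and 0.11 for *BCL2* and *PMAIP1* on chromosome 18, and 0.14 for *BCL2L11* on chromosome 2. For *BAK1* it was -0.12 and for *BID* it was -0.075. For every member but *BIK* the neighbours' median had the member's sign, though it lay near 0 for *MCL1* and *BCL2L1*. It was smaller than the member's change for all of them. The windows of *BAX* and *BBC3* overlap, as do those of *BCL2* and *PMAIP1*, so these medians are not separate observations. *BCL2L1*, *BBC3* and *BIK* lay outside the range from the 10th to the 90th percentile of their neighbours (-0.43 to 0.30, -0.52 to 0.85 and -0.46 to 0.46), and the other members, *MCL1* among them (-0.51 to 0.62), lay inside.

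The members stand in a wider set of apoptosis genes, of which 83 were listed and 75 were tested, with 13 called higher and 4 called lower. Over all tested genes the shares were 8.88% called higher and 7.25% called lower. Among the other 13 BCL2 family genes, 9 were tested, and *BNIP3*, a mitophagy receptor with a BH3-like region, was the only one called, with 44.4 and 44.9 CPM in control and 24.5 and 23.6 CPM in sgUSP22 (log2 fold change -0.89). The neighbours of *BNIP3* on chromosome 10 had a median of -0.66. *BCL2A1*, *BCL2L14* and *BCL2L15* were listed at 0 in all 4 libraries. *BCL2L2*, encoding the guardian BCL-w, was named after its values were seen and had 45.3 and 47.8 CPM in control and 57.7 and 59.3 CPM in sgUSP22 (log2 fold change 0.33).

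Of the 15 genes that act at or after the mitochondrion, 2 were called higher and 1 lower, beside 8.88% and 7.25% of all tested genes. *APAF1*, the scaffold of the apoptosome, had 18.6 and 18.6 CPM in control and 31.8 and 29.9 CPM in sgUSP22 (log2 fold change 0.73), and *DFFB*, the nuclease that cuts DNA in apoptosis, had a log2 fold change of 0.73. *VDAC2*, an outer membrane channel that binds BAK, was lower at -0.76, on chromosome 10 where its neighbours had a median of -0.47. After GC and length correction *APAF1* was at 0.56 and no longer called. Of the 7 inhibitors of apoptosis, *BIRC3* was called higher (0.66) and *BIRC7* lower (-1.42), the latter at 1.23 and 0.994 CPM in control and 0.533 and 0.294 CPM in sgUSP22. *BIRC3* lost its call after GC and length correction (0.38), and *BIRC7* lost its call without control replicate 1 or without sgUSP22 replicate 2 (edgeR adjusted p = 0.0774 and 0.0806).

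In the death receptor pathway, 14 genes were tested, 4 were called higher and 0 lower, and the median log2 fold change was 0.49. The shares called over all tested genes were 8.88% and 7.25%. By the adjusted p alone, 9 were higher and 1 was lower, beside 26.8% and 25.8% of all tested genes. *TNFSF10*, encoding the ligand TRAIL, had 0.672 and 0.545 CPM in control and 3.17 and 3.84 CPM in sgUSP22 (log2 fold change 2.52 ± 0.246). *FAS*, a death receptor, had 15.8 and 14.6 CPM in control and 29.7 and 28.1 CPM in sgUSP22 (0.93), although its neighbours on chromosome 10 had a median of -0.34. *FADD*, the adaptor that recruits caspase-8, had a log2 fold change of 0.78, and *TNFRSF25*, a receptor near 1 CPM or below, had 1.12. *TNFRSF25* was not called in DESeq2 (adjusted p = 0.115) or with control replicate 2, sgUSP22 replicate 1 or sgUSP22 replicate 2 left out. *CASP8*, named after its values were seen, had a log2 fold change of 0.53 and *BID*, its substrate, had -0.22 or, scaled to *GAPDH*, 0.012.

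Of 8 tested genes whose proteins modify or bind BCL2 family proteins, *USP9X* and *FBXW7* were called higher and 0 were called lower. Over all tested genes the shares called were 8.88% and 7.25%. USP9X is a deubiquitinase that stabilises MCL1, and FBXW7 is a ubiquitin ligase receptor for MCL1. *USP9X* had 290 and 292 CPM in control and 440 and 464 CPM in sgUSP22 (log2 fold change 0.63), and *FBXW7* had 13.6 and 14.5 CPM in control and 19.4 and 23.7 CPM in sgUSP22 (0.62). Both lost the call after GC and length correction, at 0.37 and 0.53, and *FBXW7* also without control replicate 1 (0.57) or sgUSP22 replicate 2 (0.47).

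Transcription factors that act on BCL2 family genes included 1 called gene of 13 tested, *JUN*, with 72.3 and 70.6 CPM in control and 35.4 and 30.5 CPM in sgUSP22 (log2 fold change -1.12). By the adjusted p alone, 2 were higher and 7 lower, beside 26.8% and 25.8% of all tested genes. The shares called over all tested genes were 8.88% higher and 7.25% lower.

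**Figure D5:**
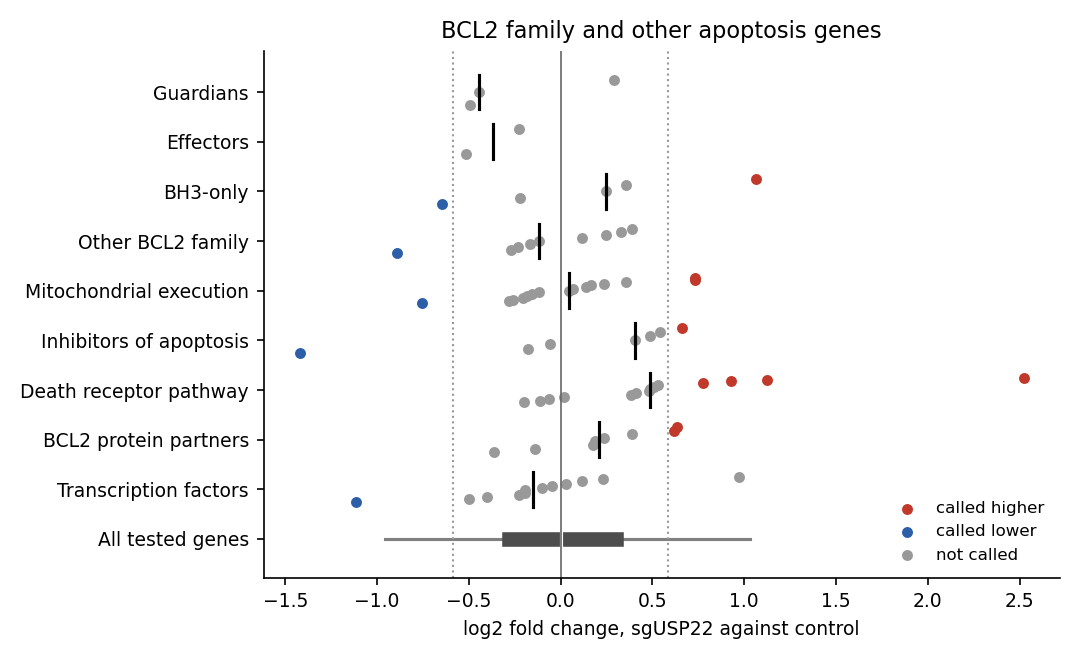
Log2 fold change of the tested genes in the BCL2 family and the other apoptosis lists described (points, red for called higher, blue for called lower, grey for not called) with the median of the points drawn in each row (black line). The lowest row gives the 5th to 95th (line) and 25th to 75th (box) percentiles and the median (white line) of all 15150 tested genes, and *TNFSF10* at 2.52 is the point farthest to the right.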

How the data were processed

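RNA-seq was analysed in 4 libraries, 2 per group. The authors aligned reads to hg38 with HISAT2 2.2.1 and deposited whole-number gene counts from StringTie 2.2.1, not normalised, and used DESeq2 1.34.0 for their own comparison. The annotation, strand setting and read length are not given in the sources used here. Columns were assigned by name, with 0 left unassigned. Precision is limited by 2 libraries per group, not by depth, except for genes with few counts, where a count of 0 allows up to 3 counts (0.0457 to 0.0492 CPM, counting error only).

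The main test was that of edgeR 4.0.16 under R 4.3.3 (TMM, filterByExpr with a minimum count of 10, glmQLFit, glmQLFTest), with both groups in the fit, no covariates and Benjamini-Hochberg adjustment over all tested genes. The threshold was an adjusted p of 0.05, with 1.5-fold for calls. Standard errors were derived from the log2 fold change and its F statistic. The steps were tested on simulated data. The members and lists were chosen with earlier results of these data known. The genes named are the 10 members, *USP22*, *GAPDH* and the genes called in each list described, beside markers, overlapping genes and genes at 0. A few more were chosen after their values were seen, among them *BCL2L2*, *BOK*, *BAD* and *CASP8*. A further gene and list, counted in the totals over all pathway genes, are not reported here. Of 28278 symbols, 25763 were matched to GENCODE v44, and GC content and length were available for 94.9% of tested genes. Same-numbered libraries deviated from their group means with a correlation of 0.078, so the numbers were not treated as pairs. Alternatives were DESeq2 1.42.0, RLE factors, library size alone, other filters, a replicate block, a correction for GC content and length (lowess span 0.3), other fold thresholds, scaling to *GAPDH*, the longest transcript as length, and leaving out each library. Motif, neighbour and ratio descriptions were added after the data were seen.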

Additional observations from a re-analysis of the deposited data

How the results depend on the processing

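Of the 10 members, 1 called higher and 1 called lower became 4 and 6 with no fold change threshold and 0 and 0 in a test against 1.5-fold. The count called lower was also 0 after correction for GC content and length, with or without the replicate block, and 1 to 2 with 1 library left out, where sgUSP22 replicate 1 added *BAX*. The other pathway genes went from 13 higher and 4 lower to 33 and 21 with no fold change threshold, with 5 higher in the test against 1.5-fold. All tested genes went from 1345 higher and 1098 lower to 4057 and 3904, and to 578 and 428 in the test against 1.5-fold. The replicate block alone gave 1341 and 1100 over all genes and left the members at 1 and 1, so it changed no member's call. *GAPDH* had a log2 fold change of -0.23, and scaling to it moved every gene up by that much and turned *BAK1* to 0.0085 and *BID* to 0.012. With library size alone 62.3% of calls were higher against 55.1%, with a median shift to 0.053.

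By the adjusted p, 9 members passed in DESeq2 and with no filter, 8 after GC and length correction, 6 with the replicate block added to that correction, where *PMAIP1* and *BID* had 0.0504 and 0.0518, and 8 to 9 with 1 library left out. *BCL2* had adjusted p-values of 0.0806 with no filter, 0.236 without control replicate 1, 0.0888 without sgUSP22 replicate 1 and 0.176 without sgUSP22 replicate 2. With the longest transcript as length, *MCL1* made up 88.4% and 87.7% of guardians in control and sgUSP22, *BAX* 74.1% and 69.9% of effectors and *PMAIP1* 55.2% and 62.8% of BH3-only transcripts. *BCL2L2* was also added to the guardians and *BAD*, *BMF* and *HRK* to the BH3-only genes, chosen after seeing the data. *MCL1* was then at 83.2% and 79.4% and *PMAIP1* at 48.8% and 55.5%. *BOK* was not added to the effectors. The causes of these shifts were not tested. With 2 libraries per group, small changes such as those of *BCL2*, *BAK1* and *BID* are at the limit of what can be resolved, and *BIK* rests on 71 to 200 counts.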
